A study of Mus musculus with 4 samples.

Results

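Classes 5 and 12 are the fetal mammary nuclei with the lowest AP-1 motif scores in a single-nucleus ATAC-seq study of mouse mammary epithelium. They are numbered classes that the authors gave to each nucleus beside its motif scores. Together they held 877 of the 7846 nuclei kept by the authors, 538 in class 5 and 339 in class 12. All 877 came from the 2 fetal libraries, which held 2577 nuclei in all. Nuclei were chosen by class number alone, and class 12 was compared with class 5 within each library. The question was whether a bias towards the basal or the luminal lineage exists where AP-1 scores are low.

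ATAC-seq uses the Tn5 transposase to cut and tag open chromatin, so reads mark accessible DNA and not RNA. Cells were sorted as EpCAM+ and Lin- from mammary tissue of CD1 mice, an outbred strain labelled WT, at embryonic day 18 for the fetal libraries and at 8 weeks for the adult libraries. Each stage had 2 libraries labelled as biological replicates. The labels used here do not give the number of fetuses pooled per library or whether the replicates shared a litter. Adult libraries served only to define lists of lineage regions, and the other fetal classes used were class 4 and class 9.

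AP-1 is a family of dimers of Fos, Jun and related leucine-zipper proteins that bind a shared DNA element and respond to growth and stress signals. The mammary epithelium has an outer basal layer, whose contractile myoepithelial cells depend on the transcription factor p63 (gene Trp63), and an inner luminal layer of keratin 8 and keratin 18 cells. Luminal cells include progenitors that use the ETS factor Elf5, and mature hormone-sensing cells that use Foxa1 and the oestrogen receptor. In the fetal gland these lineages are still being laid down.

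Class 5 made up 22.8% of the nuclei of fetal replicate 1 (201 nuclei, exact 95% binomial interval 20.1 to 25.7) and 19.9% of fetal replicate 2 (337 nuclei, 18 to 21.9). Class 12 made up 10.4% of fetal replicate 1 (92 nuclei, 8.49 to 12.6) and 14.6% of fetal replicate 2 (247 nuclei, 12.9 to 16.3). These intervals cover counting error only. Neither class held an adult nucleus (0 in each), and libraries shared 0 barcodes. The class 5 nuclei held 1118413 and 2802747 reads in fetal replicates 1 and 2, and the class 12 nuclei held 629493 and 2178832. Nuclei of class 5 had a median of 4566 and 6707 reads and nuclei of class 12 of 5818 and 7110, so class 12 was deeper by 1252 and by 403 reads. Promoter regions took a median of 25.8% and 24.2% of the reads of a nucleus in class 5 and of 24.1% and 22.3% in class 12, lower in class 12 within both libraries.

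The low AP-1 label held in the deposited scores. A motif score, here a chromVAR deviation, is a relative value centred near 0. It is negative where regions with a motif have fewer reads in a nucleus than the average over nuclei predicts, corrected by matched background regions. The median Fos motif score was -5.74 in class 5 and -4.15 in class 12, the lowest values of the 14 classes, followed by -0.83 in class 13 and -0.76 in class 9. Both classes had been singled out for this, so their low level is a description. They were not equally low. The class median of Fos was -5.25 and -6.14 in class 5 and -3.36 and -4.26 in class 12, a difference of 1.89 and 1.88 in fetal replicates 1 and 2. Within class 5 the Fos score was lower in nuclei with more reads, with Spearman's rho of -0.58 and -0.70 across 201 and 337 nuclei. In class 12 rho was -0.31 and -0.65, and in classes 4 and 9 it lay between -0.18 and 0.03. These are descriptions over nuclei of a library, and the part of depth in the Fos score was not tested.

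**Figure D1:**
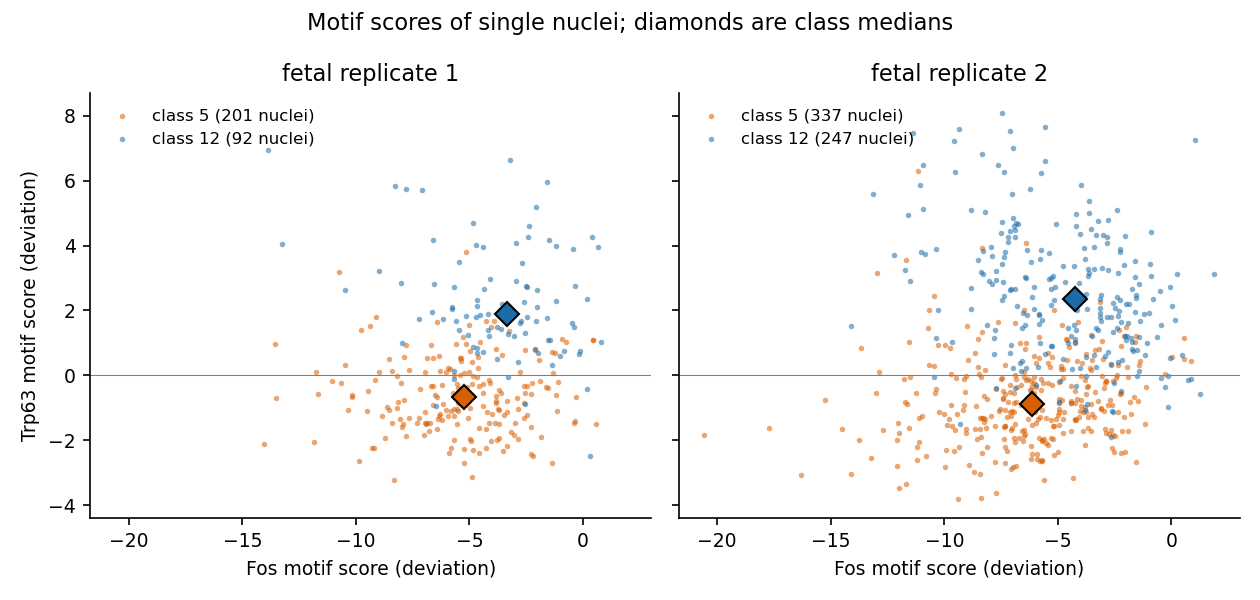
Trp63 motif score (vertical axis, deviation) against Fos motif score (horizontal axis, deviation) of single nuclei in fetal replicate 1 (left) and fetal replicate 2 (right), with class 5 in orange, class 12 in blue and diamonds at the class medians. The classes overlap on both axes, and class 12 is shifted upward along the Trp63 axis by more than along the Fos axis.

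The p53-family motifs differed most between the classes. The mean Trp63 motif score was -0.61 and -0.77 in class 5 and 2.23 and 2.53 in class 12, in fetal replicates 1 and 2. It was above 0 in both class 12 means and below 0 in both class 5 means. The difference was 3.07 (SE 0.13, n = 2 libraries), with an adjusted p of 0.00081 from limma across all 427 motif columns, with Benjamini-Hochberg adjustment. The Trp73 motif, bound by the related factor p73, differed by 3.45 (SE 0.09, adjusted p = 0.000805 by limma), from -0.49 and -0.75 in class 5 to 2.81 and 2.85 in class 12. The third listed member, Trp53, did not pass the test (difference -0.18, adjusted p = 0.154 by limma). Among single nuclei, 67.4% and 70.0% of class 12 had a Trp63 score above the 95th percentile of class 5 in the same library. The same share for the Fos score was 15.2% and 17.8%.

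The authors made the classes from these nuclei, and how is not given in the sources used here. A p-value here therefore does not test whether the classes exist. It sets the mean difference within the 2 libraries against a spread estimated in part across all features. A small p thus does not show that the libraries agreed on the size of a difference. Over all 427 columns, of which 388 hold distinct values, 28.1% passed the test, with 30 columns (7.03%) higher in class 12 and 90 columns (21.1%) higher in class 5. The median difference over all columns was -0.03. Of the 30 columns higher in class 12, 16 were in none of the motif lists, among them Egr1, Egr2, Egr3, Nfkb1, Nfkb2, Rel, Irf2 and Irf7, which were named after their values were seen.

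Among the other motif lists, calls higher in class 12 were found only for AP-1 and AP-1-like motifs: 12 of 18 listed columns passed upward and 0 downward, with a median difference of 0.73. The 12 include the identical columns of Batf and Batf3. In nuclei with Fos scores under the pooled median of the 2 classes, 6 of the 12 kept the call, 5 lost it and Jun reversed without a call. Without the library block 11 of the 12 lost the call (adjusted p from 0.0513 to 0.16 by limma) and Fosb kept it, and without class 12 of replicate 1, 5 lost it. The mean Fos score rose from -5.45 and -6.39 in class 5 to -3.76 and -4.79 in class 12 (difference 1.64, SE 0.06, adjusted p = 0.00081 by limma). The column of Smarcc1, a chromatin remodeller subunit whose motif resembles AP-1, differed by 1.75 (SE 0.06), from -5.64 and -6.62 to -3.83 and -4.93. Bach1, a leucine-zipper repressor, differed by 1.48 and Jund by 1.30. Both classes were nevertheless far below 0 for Fos, Smarcc1 and Bach1. Jun, whose column differed by 0.54, passed (adjusted p = 0.00534 by limma), and Fosl2, Mafk, Jdp2, Atf3, Nfe2l1 and Nfe2l3 did not.

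In the listed grainyhead, ETS, E-box, nuclear factor I and FOXA motifs, every column that passed was higher in class 5. Over all columns, 90 of the 120 that passed were also higher in class 5, and the grainyhead list held only 1 column. The Grhl1 motif, of a grainyhead factor that regulates epithelial junction genes, had mean scores of 0.95 and 1.22 in class 5 and -0.75 and -0.83 in class 12 (difference -1.87, SE 0.10, adjusted p = 0.00111 by limma). Elf5, the factor of luminal progenitors and alveolar cells, had 0.15 and 0.21 in class 5 and -1.01 and -0.99 in class 12 (difference -1.18, SE 0.06, adjusted p = 0.000891). In neither motif did the library means of the classes overlap, but single nuclei did. For Elf5, 35.9% and 28.7% of class 12 nuclei lay below the 5th percentile of class 5 in the same library. For Grhl1 these shares were 23.9% and 36.8%. Among 11 epithelial ETS columns, 7 fell in class 12 and 0 rose (median difference -0.51), with Elf3 at -1.15 and Ehf at -1.0, while Spdef, Ets1 and the identical Ets2 and Gabpa columns did not pass. The identical Id3 and Id4 columns, of E-box inhibitors, fell by 1.22, and the E-box motif of Snai2, a repressor of epithelial genes, fell by 1.06. In the list of E-box factors of the epithelial-mesenchymal transition 2 of 5 columns fell, Snai2 and Zeb1, while Snai1 (-0.30, adjusted p = 0.0532 by limma), Twist2 (-0.13) and Twist1 (0.12) did not pass. Nfix, of the nuclear factor I family, was above 0 on both sides but lower in class 12 (2.13 and 3.00 against 1.04 and 1.66, difference -1.21). It was the only 1 of 4 nuclear factor I columns to pass, and it lost the call without the library block. Nfic (-0.34, adjusted p = 0.147 by limma) and the identical Nfia and Nfib (-0.28, adjusted p = 0.19) did not pass. All 23 forkhead columns, 16 of them distinct, were lower in class 12, with differences from -1.04 to -0.50. Forkhead motifs resemble each other closely, so these columns are not separate observations. Only the FOXA columns among them were in a motif list, and the median difference over all columns was -0.03. Foxa1, the pioneer factor of hormone-sensing luminal cells, was negative in both classes, at -1.39 and -1.88 in class 5 and -2.59 and -2.68 in class 12 (difference -1.0, SE 0.11, adjusted p = 0.00608 by limma).

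Several lineage motifs did not pass. Gata3, a luminal regulator, differed by 0.11 (adjusted p = 0.613 by limma) and Sox9 by 0.10 (adjusted p = 0.551). Both TEAD columns, both GATA columns and all 4 TCF and LEF columns were without a call. In the SOX list 3 of 12 columns fell, in the RUNX list 3 of 3 (Runx1 at -0.31, a column identical to Runx3), in the STAT list 1 of 5, and among hormone receptors 1 of 4 (Esr1 at -0.59). Over all columns 21.1% were called higher in class 5. The SOX, STAT and hormone receptor counts, and the nuclear factor I count above (1 of 4), thus lie near the background. Runx1 and Runx3 lost their call in nuclei of 4000 to 12000 reads and in nuclei with Fos scores under the pooled median. Runx2 lost its call with medians over nuclei. Of 10 alternatives, Stat5a, the STAT column that fell, lost its call under 8, Sox6 under 7 and Sox11 under 5. Ctcf, of the insulator protein, differed by -0.27 (adjusted p = 0.0532), and by -0.14 and 0.38 in the 2 libraries among nuclei under the pooled median Fos score.

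The same contrast in nuclei with higher AP-1 scores was class 4 against class 9, whose Fos medians were 0.18 and -0.05, and -0.85 and -0.67. The Trp63 score differed there by 3.60, from -0.78 and -0.71 in class 9 to 2.89 and 2.81 in class 4. Set side by side, Grhl1 differed by -1.69, Elf5 by -1.24, Id3 by -1.66, Foxa1 by -0.81 and Fos by 1.02 between classes 4 and 9. Across the 388 distinct columns Pearson's r between the contrasts was 0.94 and Spearman's rho 0.87. Motifs are not independent, and both contrasts come from the same libraries. In the interaction test (class 12 minus class 5 against class 4 minus class 9) 0 of 427 columns passed (0.0%) by limma, and 47 had an unadjusted p under 0.05. The smallest adjusted p was 0.073, shared by Ctcf, Mesp1, Tcf3 and Tcf4. For Trp63 the interaction was -0.53 (unadjusted p = 0.00679, adjusted p = 0.153 by limma). The interaction was thus not detected at 2 libraries, which does not show that the contrasts are equal.

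**Figure D2:**
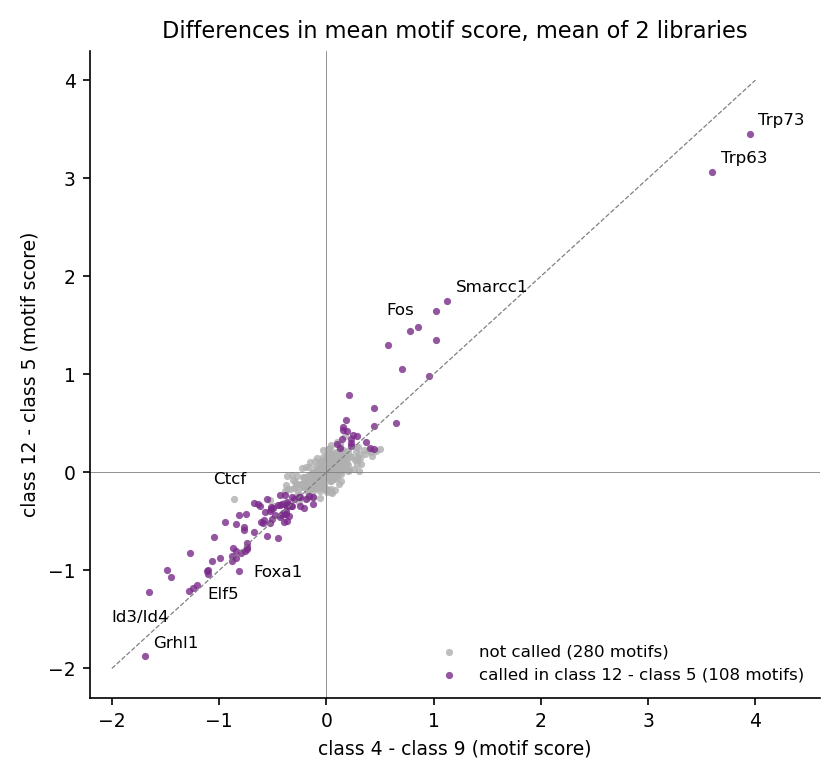
Difference in mean motif score between class 12 and class 5 (vertical axis) against that between class 4 and class 9 (horizontal axis), each the mean of 2 fetal libraries, for 388 distinct motif columns. Purple points passed the limma test between classes 12 and 5, grey points did not, and the dashed line marks equal differences. Trp63 and Trp73 lie far out at the upper right, Grhl1 and Elf5 at the lower left, and Fos lies above the line.

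Because class 12 was less extreme for Fos, the comparison was repeated on nuclei whose Fos score was under the median of both classes pooled in their library. This left 119 and 194 nuclei of class 5, and 27 and 98 of class 12. Their mean Fos scores were -7.19 and -8.50 in class 5 and -7.05 and -7.90 in class 12, a remaining difference of 0.14 and 0.60. The mean Trp63 score was -0.59 and -0.91 in class 5 and 2.65 and 3.25 in class 12, a difference of 3.70 ± 0.65 (SD, n = 2). Grhl1 differed by -2.05 ± 0.50 and Elf5 by -1.39 ± 0.21 (SD, n = 2). In the lowest of 4 equal bins of the pooled Fos score, with 61 and 103 nuclei against 12 and 43, the Fos difference was -0.12 and 0.74 and the Trp63 difference 4.45 and 4.43. The Trp63, Grhl1 and Elf5 differences were thus present among these nuclei in both libraries, with Fos nearly matched in replicate 1 and only partly matched in replicate 2. Among nuclei under the median Fos score, class 12 was deeper in fetal replicate 2, with a median of 12162.5 reads against 9447.5 in class 5, and shallower in replicate 1, with 5123 against 5453. In the lowest bin class 12 was deeper in both libraries, with 8450.5 and 14544 reads against 7751 and 12655. The part of depth in these differences was not tested.

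Distal regions that mark adult lineages gave a readout that uses no motif matches. It counts reads of the same nuclei as the motif scores, so it is not separate support for them. Adult nuclei of the deposited classes 1 and 8 (basal), 3 and 7 (luminal progenitor) and 2 and 11 (mature luminal) were summed per adult library. The deposited classes are numbers, and these lineage names are not part of them. The median Trp63 score was 2.94 and 3.59 in classes 1 and 8, and from -1.21 to -0.92 in classes 2, 3, 7 and 11. Regions higher in a lineage than in both others were listed. Of all distal reads, the 4018 adult basal regions took 4.20% and 4.31% in class 5 and 7.85% and 7.60% in class 12. The class values did not overlap, and the log2 difference was 0.86 ± 0.06 (SD, n = 2), or 1.81-fold. The 4773 regions higher in both adult luminal lineages than in basal nuclei took 5.06% and 5.03% in class 5 and 3.00% and 2.97% in class 12, a log2 difference of -0.76 ± 0.01 (SD, n = 2). The 2438 luminal progenitor regions took 4.24% ± 0.02 in class 5 and 2.53% ± 0.01 in class 12 (log2 difference -0.75 ± 0.02, SD, n = 2). The 8570 mature luminal regions differed little, at 2.21% in class 5 and 2.09% in class 12 (-0.09 ± 0.03). Pairs of 2 libraries cannot give an exact sign-permutation p below 0.5, so no p is given. The lists came from adult nuclei, but whether the fetal reads in these regions also entered the making of the classes is not given in the sources used here.

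Between classes 4 and 9 the basal list differed by 0.93 and the list shared by both luminal lineages by -1.0 and -0.91 on the log2 scale. The latter difference was smaller between classes 12 and 5, by 0.25 and 0.15. Class 9 took more reads in the shared luminal list than class 5 (6.12% and 5.87%), and more in the mature luminal list (3.36%). In the luminal progenitor list class 9 and class 5 lay together in the plot of list shares, and class 4 and class 12 in the shared luminal list (3.07% and 3.12% in class 4).

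**Figure D3:**
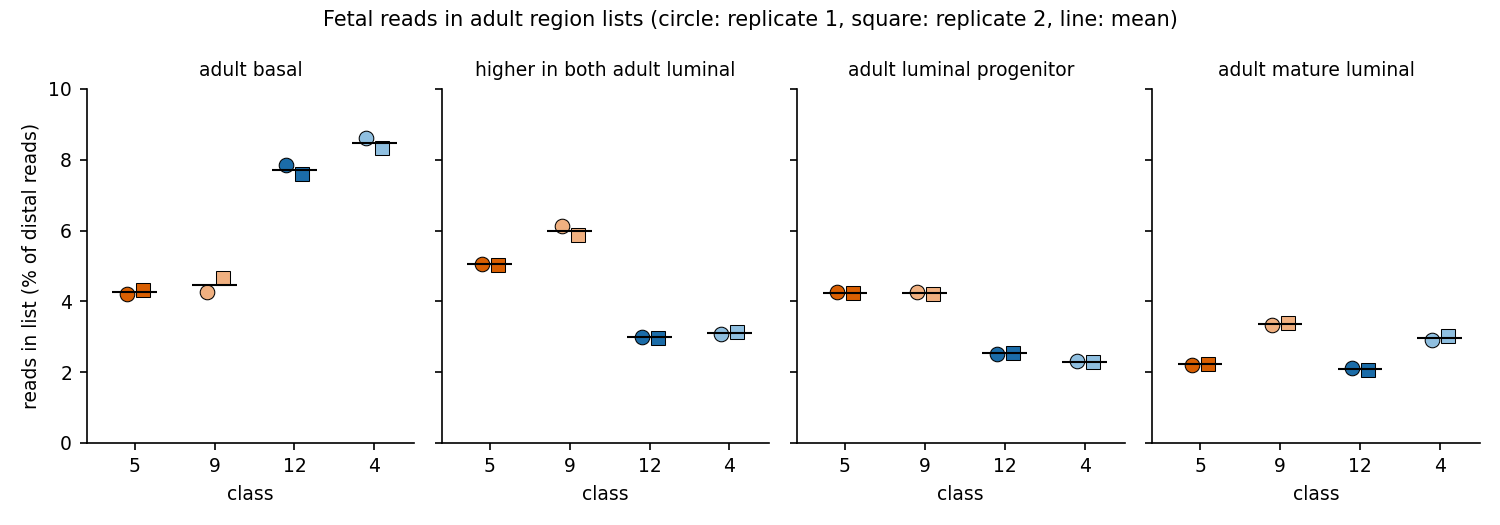
Share of distal reads (percent, vertical axis) that fell in adult basal regions, in regions higher in both adult luminal lineages, in luminal progenitor regions and in mature luminal regions, for fetal classes 5, 9, 12 and 4, with circles for fetal replicate 1, squares for fetal replicate 2 and lines at the means. Class 12 lies near 8% and class 5 near 4% in the basal list, and both lie near 2% in the mature luminal list.

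Within single nuclei, a basal index was taken as basal-list reads in percent of reads in the basal and shared luminal lists together. Its median was 43.4% and 45.1% in class 5 and 73.1% and 72.2% in class 12. In class 12, 95.7% and 90.7% of nuclei lay above the 95th percentile of class 5. The medians of classes 9 and 4 were 39.7% and 41.2%, and 73.5% and 73.8%. When nuclei were split into 4 equal bins of the Fos score within a class and library, class 12 medians stayed between 70.7% and 75.5% and class 5 medians between 42.6% and 47.2%. The lowest bins had median Fos scores of -6.61 and -8.08 in class 12 and -8.64 and -10.3 in class 5. No class 5 bin reached a class 12 bin.

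**Figure D4:**
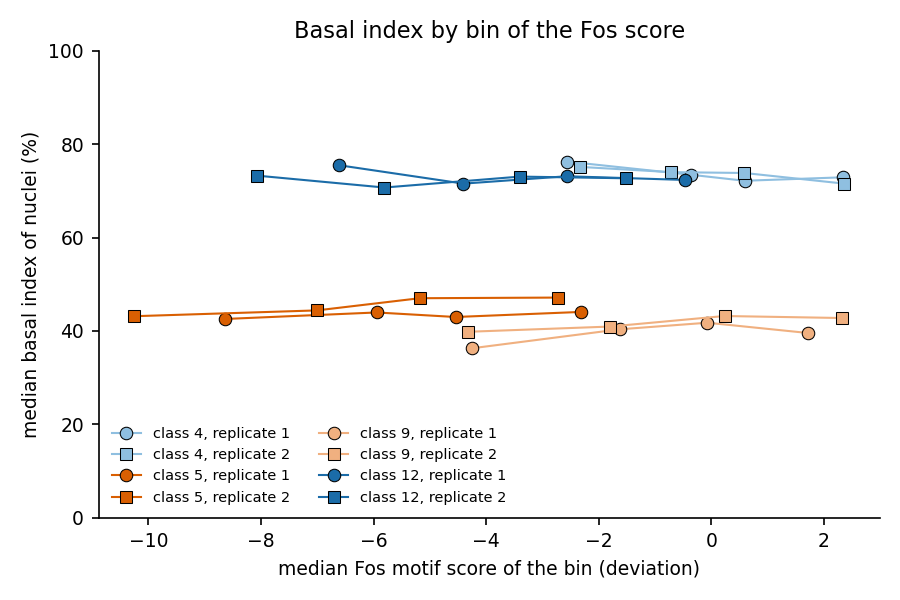
Median basal index of nuclei (percent, vertical axis) against the median Fos motif score (deviation, horizontal axis) of each of 4 bins of the Fos score, for classes 5, 12, 9 and 4 in fetal replicate 1 (circles) and fetal replicate 2 (squares). Class 12 and class 4 bins lie above 70% and class 5 and class 9 bins below 50% at every Fos level shown.

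Tested region by region, few distal regions passed. Distal regions entered the test if their sums averaged 10 reads or more. Of 16496 such regions, 117 (0.709%) passed edgeR's quasi-likelihood test at an adjusted p under 0.05, with library as a block. Of these, 79 (0.479%) were higher in class 12 and 38 (0.23%) in class 5, and 1985 had an unadjusted p under 0.05. All 117 had the same direction in both libraries, as did 61.4% of all tested regions. Among the 79 regions higher in class 12, 58 (73.4%) were in the adult basal list, which held 8.27% of tested regions, and 0 were in an adult luminal list. Among the 38 higher in class 5, 19 (50%) were in the list shared by both luminal lineages (5.23% of tested regions), 10 (26.3%) in the luminal progenitor list (4.82% of tested regions) and 0 in the basal list. These lists overlap, and 3 of the regions were in both. All 117 regions had the same sign between classes 4 and 9, where 88 of them passed and 6.63% of tested regions passed in all. Over all tested regions Pearson's r between these contrasts was 0.58, and the share of them with the same sign is not given here. Both contrasts use the same libraries.

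The distal calls were fragile. Each fragment appears as neighbouring reads, and in fetal replicates 1 and 2 at least 99.98% of reads had another read of the same nucleus within 1000 bases, so reads are not independent. When each nucleus with a read was counted once, 0 of 15920 regions passed by edgeR, with 2205 at an unadjusted p under 0.05. Without class 5 of replicate 2, 0 passed (1934 at an unadjusted p under 0.05), and without class 5 of replicate 1, 16 passed. DESeq2 called 20 regions. Over whole lists the shift was spread over many regions. Of 1364 tested regions of the adult basal list, 1130 had a positive log2 fold change, with a median of 0.80. Of 862 tested regions of the shared luminal list, 686 had a negative one, with a median of -0.75. The median over all tested regions was -0.06.

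The largest well-covered rise in class 12 was at chr2:163074866-163075865 (mm10), inside the gene Mybl2, with 5 and 21 reads in class 5 and 33 and 75 in class 12 (fetal replicates 1 and 2). These reads came from 2 and 10 nuclei of class 5, and from 16 and 34 of class 12. The log2 fold change was 2.69 (SE 0.44, adjusted p = 0.00345 by edgeR). The region at chr10:67798667-67799666, 86439 bases from the gene Zfp365, had 6 and 17 reads in class 5 and 23 and 79 in class 12 (log2 fold change 2.67, adjusted p = 0.00535 by edgeR). The other named rises, with log2 fold changes from 1.91 to 1.97, were inside Adamts18, a secreted protease gene, inside Plcl1, and 8244 bases from Chst3, an enzyme of chondroitin sulfate synthesis. The largest named fall was at chr2:165281571-165282570, inside Slc35c2, with 31 and 84 reads in class 5 and 0 and 6 in class 12 (log2 fold change -3.81, SE 0.66, adjusted p = 0.00594 by edgeR). The region at chr2:103138492-103139491, 45843 bases from Apip on the chromosome that also carries Ehf, had 39 and 81 reads in class 5 and 4 and 6 in class 12 (log2 fold change -2.96, adjusted p = 0.00834). The other named falls, from -2.54 to -2.30, were 124717 bases from Tomm20, 27640 bases from Lmntd1 and inside Plekhg1. The 10 named regions all lost their call when nuclei were counted once. Distal sequences are not shown.

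Some called regions lay beside genes of the lists below, and these were picked out after their values were seen. A region 10263 bases from Krt18 was higher in class 5 (log2 fold change -1.96, adjusted p = 0.0216 by edgeR). Regions nearest to Snai2 (1.35, 90704 bases away), Edar (2.92, 14899 bases away), an ectodysplasin receptor gene of skin appendages, and Tbx3 (3.91, 369693 bases away) were higher in class 12. So was a region inside Jdp2, an AP-1 repressor gene, at chr12:85636564-85637563 (4.45, adjusted p = 0.0215 by edgeR), with 0 and 3 reads in class 5 and 20 and 25 in class 12. A region inside Trp73, a gene in none of the lists, at chr4:154071159-154072158, had 2 and 2 reads in class 5 and 22 and 48 in class 12 (log2 fold change 4.57). A nearest gene is a position and not a target. Of the called regions, 55.7% of those higher in class 12 and 55.3% of those higher in class 5 lay inside the span of a protein-coding gene. The same share over all tested regions is not given here, so these shares are a description of position only. In 3 called regions class 5 had no read, and class 12 was at least 20.8-fold higher against a floor of 3 reads over the class. In 6 others class 12 had no read, and class 5 was at least 10.5-fold higher.

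At promoter regions 0 of 11115 tested regions (0.0%) passed by edgeR and 0 by DESeq2, and 588 had an unadjusted p under 0.05 by edgeR. Of the named promoter regions, the smallest adjusted p was at Cldn3, a tight-junction claudin of luminal cells. Its promoter region held 60 and 169 reads in class 5 and 11 and 28 in class 12 (log2 fold change -1.86, adjusted p = 0.0829 by edgeR). Arhgef38 had 76 and 130 reads against 8 and 33 (-1.74, adjusted p = 0.0842). At the promoter of Acta2, the smooth-muscle actin of myoepithelial cells, there were 10 and 22 reads in class 5 and 10 and 41 in class 12 (1.23, adjusted p = 0.907). At Fos there were 53 and 180 reads against 21 and 82 (-0.53, adjusted p = 0.919). The gene spans of Cldn3, Acta2 and Fos are among the calls below. Arhgef38 had the second smallest adjusted p of the named promoter regions. The promoters of these 4 genes are therefore shown. They run from 250 bases before to 50 bases after the annotated start, 5′ to 3′ on the gene's strand, from RefSeq (GRCm38.p6), at chr5:134985964-134986263 (Cldn3, plus strand), chr3:133234840-133235139 (Arhgef38, minus), chr19:34255324-34255623 (Acta2, minus) and chr12:85473640-85473939 (Fos, plus). Capitals mark matches on either strand to AACCNGTT (grainyhead), AGGAAG (ETS), CAGGTG (E-box), TGANTCA (AP-1) or 2 CATG blocks 6 bases apart (p53 family).
Cldn3: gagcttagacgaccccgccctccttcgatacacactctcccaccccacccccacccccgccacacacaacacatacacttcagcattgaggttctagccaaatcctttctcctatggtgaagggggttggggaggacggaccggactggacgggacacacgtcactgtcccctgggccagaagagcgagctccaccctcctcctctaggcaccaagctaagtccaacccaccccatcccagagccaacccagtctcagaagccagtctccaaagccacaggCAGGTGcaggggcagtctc
Arhgef38: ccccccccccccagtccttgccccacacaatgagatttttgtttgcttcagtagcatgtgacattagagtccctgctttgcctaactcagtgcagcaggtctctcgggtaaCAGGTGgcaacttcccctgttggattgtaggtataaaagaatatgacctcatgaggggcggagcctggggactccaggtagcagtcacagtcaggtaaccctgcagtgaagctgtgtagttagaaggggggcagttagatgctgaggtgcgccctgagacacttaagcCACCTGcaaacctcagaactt
Acta2: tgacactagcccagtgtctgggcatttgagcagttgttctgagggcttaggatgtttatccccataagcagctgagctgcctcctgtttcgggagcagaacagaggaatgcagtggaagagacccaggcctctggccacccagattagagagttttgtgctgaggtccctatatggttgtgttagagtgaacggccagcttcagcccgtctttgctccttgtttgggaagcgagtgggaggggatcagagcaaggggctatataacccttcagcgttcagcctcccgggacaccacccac
Fos: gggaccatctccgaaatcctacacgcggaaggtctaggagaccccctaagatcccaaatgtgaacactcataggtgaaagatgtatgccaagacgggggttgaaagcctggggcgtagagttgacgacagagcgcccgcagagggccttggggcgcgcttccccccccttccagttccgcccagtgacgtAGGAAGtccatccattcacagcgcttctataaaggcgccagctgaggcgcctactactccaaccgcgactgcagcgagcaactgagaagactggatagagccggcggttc
Cldn3 and Arhgef38 held E-box matches, Fos an ETS match and Acta2 none of the 5 motifs. A match is a description and not a binding site. Among 119 promoters of 78 matched genes whose spans were higher in class 5, 28.6% held the E-box, against 21.6% of 213 promoters of 148 matched genes higher in class 12 and 20.2% of all 32851 promoters. For the ETS motif these shares were 29.4%, 33.8% and 35.4%, for AP-1 5.88%, 5.63% and 7.81%, for grainyhead 1.68%, 1.88% and 2.09%, and for the p53-family pair 0.0%, 1.88% and 0.712%. Overlapping genes and alternative starts share sequence, so these shares were not tested.

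Reads were also summed over each gene with 2000 bases on either side, which gave every listed gene a value. Of 15897 gene spans, 299 (1.88%) passed edgeR's test, 201 (1.26%) higher in class 12 and 98 (0.616%) higher in class 5. Levels are given as CPM, the reads of the span scaled to the total of reads in tested spans after TMM adjustment, and the order of values is fetal replicate 1 and then 2. Accessible chromatin over a gene is not its expression. All 299 had the same direction in both libraries, as did 57.6% of all tested spans, and the median log2 fold change over all spans was -0.01.

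Of 24 basal and myoepithelial genes, 6 rose in class 12 and 0 fell, with a median log2 fold change of 0.45. A positive median was not particular to this list, as the stromal markers described below had 0.56 with 0 calls. Trp63 (chr16:25683763-25892088), the regulator of basal identity, had 103 and 103 CPM in class 5 and 205 and 217 in class 12 (log2 fold change 1.04, SE 0.18, adjusted p = 3.24e-06 by edgeR). The gene and its motif were thus both higher in class 12. Acta2 (chr19:34240336-34255585) had 20.2 and 21.4 CPM in class 5 and 50.8 and 126 in class 12 (2.13, SE 0.33, adjusted p = 3.47e-07). Its size rested on class 12 of replicate 2, without which the adjusted p was 0.172, and its span overlaps Stambpl1. Cdh3, the P-cadherin of basal cells, had 98.9 and 84.4 CPM against 199 and 150 (0.90, adjusted p = 0.000999). The other 3 calls were hemidesmosome and basement-membrane genes: Lama3 (144 and 144 against 283 and 259 CPM), Lamb3 (61.8 and 57.8 against 106 and 116) and Col17a1 (18 and 24.2 against 57.1 and 49.7), all overlapping other genes. The basal keratins did not pass: Krt14 had 41.6 and 27.0 CPM against 61.4 and 56.8 (0.85, adjusted p = 0.209 by edgeR) and Krt5 2.2 and 7.9 against 16.9 and 14 (1.45, adjusted p = 0.555).

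Of 20 luminal keratin and junction genes, 4 fell in class 12 and 0 rose, with a median of -0.65. Krt18 (chr15:102028216-102032026), a keratin of luminal cells, had 54.0 and 46.1 CPM in class 5 and 12.7 and 14 in class 12 (log2 fold change -1.84, SE 0.42, adjusted p = 0.00218 by edgeR). Its partner Krt8 did not pass, at 85.4 and 97.9 against 40.2 and 63.8 CPM (-0.78, adjusted p = 0.127). Cldn3 (chr5:134986214-134987476) had 109 and 116 CPM against 42.3 and 37.0 (-1.54, adjusted p = 1.87e-05). Ehf (chr2:103263431-103303275), an epithelial ETS factor, had 153 and 187 CPM in class 5 and 16.9 and 80.4 in class 12 (-1.69, SE 0.22, adjusted p = 2.35e-10). The class 12 values of the replicates were far apart, and both lay below class 5. Without class 12 of replicate 2 the log2 fold change was -3.21. Prss8, an epithelial protease gene, had 73.1 and 77.4 CPM against 29.6 and 37.0 (-1.15, adjusted p = 0.0217). Over spans without flanks Krt18, Cldn3 and Prss8 lost the call and Ehf kept it.

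Genes of finer luminal states showed few calls. In the luminal progenitor list 1 of 13 tested genes passed, Hif1a, a hypoxia factor, and it was higher in class 12 (57.3 and 69.0 against 106 and 149 CPM, log2 fold change 1.03, adjusted p = 0.0026 by edgeR). Elf5 (-0.87, adjusted p = 0.169) and Kit (-0.92, adjusted p = 0.0898) did not pass, and the median of the list was -0.42. In the mature luminal list 0 of 11 passed, with a median of -0.02, Foxa1 at -0.15 and Esr1 at 0.46. In the fetal progenitor list 0 of 14 passed, with a median of 0.10 and Sox10 at 0.03. Of 12 tested embryonic bud genes 2 rose: Nrg3, an ERBB ligand gene of bud placement (105 and 103 against 135 and 206 CPM, 0.75), and Fgfr2, a receptor needed for bud formation (244 and 303 against 364 and 372, 0.41, adjusted p = 0.0348 by edgeR). The Fgfr2 call was lost under 13 of 15 alternatives, among them DESeq2, scaling by total reads and each left-out sum.

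Among 16 genes that encode AP-1 proteins, 2 fell in class 12 and 0 rose. The Fos gene (chr12:85473890-85477274) had 233 and 250 CPM in class 5 and 114 and 129 in class 12 (log2 fold change -0.98, SE 0.16, adjusted p = 2.45e-06 by edgeR). Accessibility of the gene was thus lower in the class with the higher Fos motif score, within both libraries. Atf3, a stress-response member, had 242 and 137 CPM against 133 and 84.2 (-0.77, adjusted p = 0.00418). The lowest class 5 value (137) and the highest class 12 value (133) nearly met, and each library alone was lower in class 12. Jun at -0.20, Junb at -0.06, Jund at -0.21 and Fosl2 at 0.07 did not pass. In the Notch list 1 of 14 rose, the ligand Dll1 (68.6 and 74.1 against 121 and 137 CPM, 0.86, adjusted p = 0.0147), and 1 fell, the receptor Notch1 (279 and 297 against 231 and 167, -0.59, adjusted p = 0.00363).

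**Figure D5:**
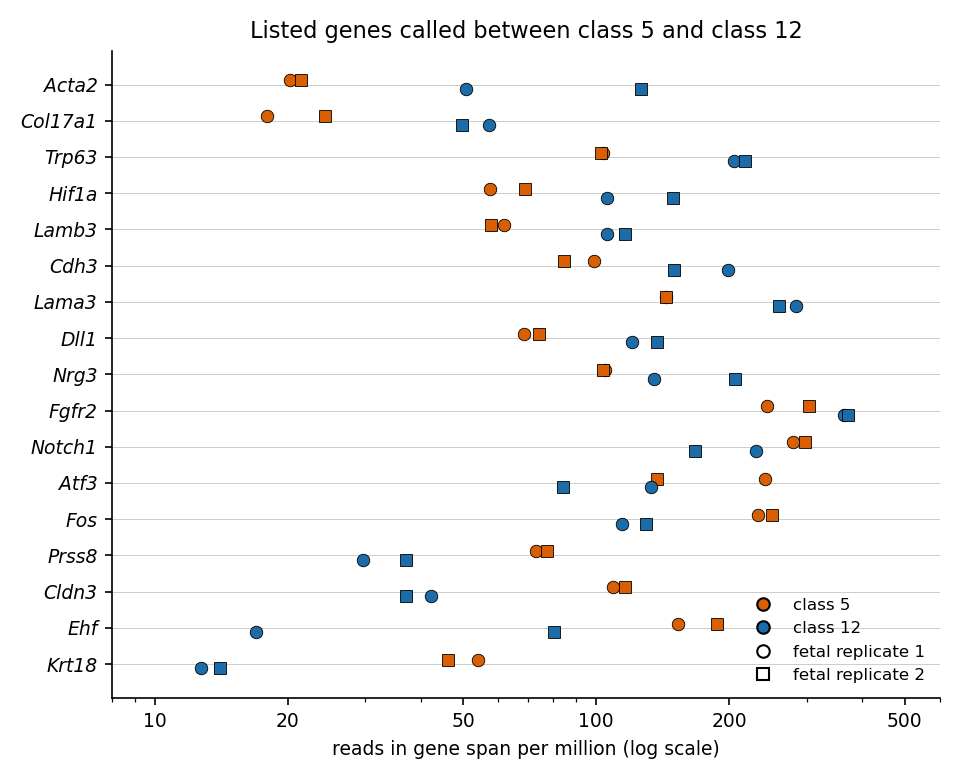
Reads in the gene span as CPM (log scale, horizontal axis) for the 17 listed genes that passed edgeR's test, with class 5 in orange, class 12 in blue, circles for fetal replicate 1 and squares for fetal replicate 2. From Acta2 down to Fgfr2 class 12 lies to the right of class 5, and from Notch1 down to Krt18 it lies to the left. The closest single values of the classes are at Atf3 and come from different libraries.

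Outside the lists, the largest rises by rule after Acta2 were Slc22a22 (1.5), Fam207a (1.46), Edaradd, an adaptor of the ectodysplasin receptor (34.8 and 37.8 against 102 and 99.5 CPM, 1.45, adjusted p = 0.000216 by edgeR), and Slc34a1 (1.33), whose span overlaps Pfn3 and F12. The other 5 places went to Ugt1a7c, Ugt1a8, Ugt1a10, Ugt1a9 and Ugt1a6b, whose nested spans share most of their reads and count as a single, uncertain locus. The largest falls beside Ehf and Cldn3 were Ptar1 (-1.57), Tlr3 (-1.55), Marveld2, a junction gene whose span overlaps Rad17 (-1.44), Osgin1 (-1.43), Apeh (-1.42), Edn1, the endothelin 1 gene (86.6 and 82.5 against 46.5 and 25.5 CPM, -1.36, adjusted p = 0.00245), Man2b1 (-1.30) and Shtn1 (-1.28). In 4 of these the fall was much larger in replicate 1 than in replicate 2, with log2 differences of -3.67 and -0.78 for Apeh, -3.94 and -0.68 for Marveld2, -2.39 and -0.80 for Man2b1 and -2.59 and -0.74 for Shtn1. The spans of Osgin1, Apeh, Man2b1 and Shtn1 overlap other genes too. Of 14 alternatives, the call was lost under 8 for Apeh and Man2b1, 7 for Marveld2 and 5 for Shtn1 and Tlr3. Among the rises it was lost under 7 for Ugt1a6b, 6 for Slc34a1, 4 for Fam207a and Slc22a22, and 3 for Edaradd. Fam207a had log2 differences of 2.49 and 0.87 and Slc22a22 of 2.21 and 1.03 in replicates 1 and 2. Between classes 4 and 9, 295 of the 299 called spans had the same sign and 216 passed, where 8.89% of spans passed in all. Over all tested spans Pearson's r between these contrasts was 0.42, and the share of them with the same sign is not given here. The gene span interaction gave 0 of 16638 calls (0.0%) by edgeR, with 874 at an unadjusted p under 0.05. The distal interaction gave 0 of 26719 (0.0%) by edgeR and by DESeq2, with 1021 at an unadjusted p under 0.05 by edgeR. The spans of Col17a1 and Fos (interaction adjusted p = 0.781 for both by edgeR) had log2 fold changes of 0.02 and -0.25 between classes 4 and 9, against 1.27 and -0.98 between classes 12 and 5.

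The gene calls depended on how reads were counted and which nuclei were used. With each nucleus counted once, 68 spans passed. Of the 17 listed genes that were called, 7 then kept the call (Acta2, Cldn3, Ehf, Cdh3, Lama3, Fos and Col17a1) and 10 lost it: Trp63 (adjusted p = 0.055 by edgeR), Krt18, Prss8, Lamb3, Hif1a, Nrg3, Fgfr2, Dll1, Notch1 and Atf3. Over spans without flanks 6 of the 17 lost the call: Krt18, Cldn3, Prss8, Lamb3, Col17a1 and Fgfr2. Over all 14 alternatives, Col17a1 lost the call under 9 and Prss8 and Lamb3 under 8 each. Of the same 17, 11 lost the call without class 12 of replicate 2 and 10 without class 5 of replicate 2. In nuclei with Fos scores under the pooled median 7 spans passed, Acta2 and Ehf among them, and in nuclei of 4000 to 12000 reads 2 passed. Of the 17 listed genes, 15 lost the call in the first setting and 16 in the second, where Fos alone kept it. DESeq2 called 19 spans, 18 of them higher in class 12 and 1 in class 5. It gave an adjusted p for 6 of the 34 named genes. The adjusted p by DESeq2 was 0.024 for each of Trp63, Lama3 and Fos. For Atf3 it was 0.173, for Notch1 0.255 and for Fgfr2 0.343, and these 3 lost their calls. The direction of all 34 was the same under every alternative compared, and DESeq2 was compared only for the 6 with an adjusted p.

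Markers of other cell types were also checked, although a sort for EpCAM+ and Lin- cells is meant to remove stromal, endothelial and immune cells. Stromal markers had 0 of 10 tested genes called, a median of 0.56, and summed levels of 312 and 315 CPM in class 5 and 401 and 434 in class 12. Endothelial markers had 0 of 8 called, a median of 0.31, and 291 and 327 against 351 and 413 CPM. Immune markers had 0 of 6 called, a median of 0.20, and 118 and 135 against 162 and 147 CPM. All 3 sums were higher in class 12 in both libraries, and their part in the differences above was not tested. Epidermal markers (0 of 9) and nerve markers (0 of 7) had medians of 0.10 and 0.08. No marker in these lists was at 0 reads over the 4 sums.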

How the data were processed

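Open chromatin of single nuclei from mouse mammary epithelium was measured in 2 fetal and 2 adult libraries. Per the labels' protocols, 2000 nuclei were tagmented per well, with 16 wells for each fetal replicate, and 20 nuclei were then sorted into each of 768 wells. The submitters' processing notes name Bowtie2, MACS2, bedtools and the mm10 build, without versions or roles. How duplicates and cut sites were treated is not given in the sources used here.

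The authors deposited, for each library, read positions with a barcode, from which read counts were made here without any shift. Their deposited table gives a chromVAR deviation score for each motif column and nucleus, a class number of unstated making, and a count of reads per nucleus, which equalled the reads of the barcode in all 7846 nuclei. Region lists deposited by the authors give promoter and distal intervals of 1000 bases. No doublet caller was run, because the deposited classes were used as they stood.

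Reads were counted in each region they overlapped and over each RefSeq gene (GRCm38.p6) with 2000 bases on either side, and summed per class and library. The sums entered edgeR (version 4.0.16, under R 4.3.3) and its quasi-likelihood test, with library as a block, TMM scaling, a filter of 10 mean reads per sum and Benjamini-Hochberg adjusted p under 0.05. The SE of a log2 fold change was derived from the test's F statistic. With 4 sums the fit has 1 residual degree of freedom, and the spread is shared across features. Classes of a library come from the same sample, which is where the pairing comes from. Mean motif scores were tested with limma 3.58.1 in the same design. The interaction with classes 4 and 9 used 8 sums. Adult lists needed an adjusted p under 0.05 and a log2 fold change of at least 1 against both other lineages. DESeq2 1.42.0 was an alternative. Tables and plots used Python 3.11.15 with matplotlib 3.10.9, pandas 2.3.3 and scipy 1.17.1. Only the edgeR and limma fits of 4 sums or means, with library as a block, were tested on simulated data.

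Named distal and promoter regions were the 5 largest called log2 fold changes in each direction that averaged 30 or more reads per sum and had the same direction in both libraries. Named gene spans were the 10 largest in each direction with a mean of at least 50 reads, plus called genes of the lists. Named motifs were the 5 largest called in each direction plus the motif lists, and where too few features were called the smallest unadjusted p filled the places. The classes, lists and tests were chosen with earlier results of these data known. Whether the replicates are independent litters is not stated, so p-values speak only for these libraries. They rest on a spread estimated in part across all features.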

Additional observations from a re-analysis of the deposited data

How the results depend on the processing

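Under the alternatives run, the basal list difference between classes 12 and 5 stayed positive and the luminal ones negative. On the log2 scale, adult lists made at a log2 fold change of at least 2 gave 1.14 for basal, -0.91 for luminal progenitor, -0.035 for mature luminal and -0.91 for shared luminal regions. Shares of all reads gave -0.71 for luminal progenitor and -0.72 for shared luminal regions. Nuclei with 4000 to 12000 reads gave -0.77 and -0.80 for these lists, and nuclei with low Fos scores -0.72, -0.16 (mature luminal) and -0.79. With each library alone the basal difference was 0.82 to 0.90, luminal progenitor -0.76 to -0.73, mature luminal -0.11 to -0.06 and shared luminal -0.76 to -0.75. The Fos-matched Trp63 difference was 4.44 in the lowest of 4 Fos bins.

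Counts of called distal regions (117) were 20 with DESeq2, 181 with scaling by total reads, 69 with no filter, 320 with 8 sums in the fit, 70 in nuclei with 4000 to 12000 reads, 0 in nuclei with low Fos scores (366 at an unadjusted p under 0.05 by edgeR), 295 with reads counted by midpoint, and 0 with each nucleus counted once. The last alternative was chosen after seeing the data. Promoter counts (0) were 4 with scaling by total reads, 5 with relative log expression factors, 6 with a mean of at least 20 reads, 8 with no filter, 6 with 8 sums and 14 with each nucleus counted once. Gene span counts (299) were 19 with DESeq2, 2 in nuclei with 4000 to 12000 reads, 7 in nuclei with low Fos scores, 197 over spans without flanks and 68 with each nucleus counted once. The depth and low Fos settings use fewer nuclei. Otherwise the cause was not tested. The distal interaction gave 1 call with scaling by total reads. Leaving out a whole library leaves no residual degree of freedom, so each sum was left out in turn from the fit of 8 sums, and the lone sum is assumed to vary like the others: distal calls ranged from 0 to 246, promoter calls from 0 to 32, gene span calls from 86 to 200 and motif calls from 112 to 153.

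Without the replicate block the calls were 153 for distal regions, 4 for promoter regions, 135 for gene spans and 90 for motif columns. Of the called motifs and the named regions and genes that were repeated, 1 reversed: the Jun motif in nuclei with low Fos scores, at -0.033 (adjusted p = 0.882 by limma). Of 358 repeats of named motif results 48 lost the call, of 150 for distal regions 52, and of 482 for gene spans 166. Of 140 repeats for promoter regions, 23 gained a call. The lowest Fos bin of replicate 1 held 12 nuclei of class 12, which limits the precision of that comparison.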
